A study of Mus musculus with 10 samples.

Results

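Otoconia are the calcium carbonate crystals that rest on the maculae of the utricle and saccule and let the vestibular organs sense gravity and linear acceleration. They form on a protein matrix secreted into endolymph, whose main protein in mammals is otoconin 90. Their formation in the mouse also needs the oxidase complex of NOX3, p22phox and NOXO1 and the proton channel otopetrin 1. The set described here holds 7 genes, chosen by symbol for these roles: Nox3, Noxo1 and Cyba of the oxidase, Otop1, and the matrix genes Oc90, Otol1 and Sparcl1. All 7 are among the 15472 genes of the deposited table, and all 7 had reads in every library.

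RNA came from inner ears of C57BL/6 mouse embryos at E16.5, from 5 samples homozygous for the nmf219 allele of Tbx1 (nmf219) and 5 wild-type samples with genotype +/+ (WT). Tbx1 encodes a T-box transcription factor of the developing ear. The labels name no transgene or Cre, and both groups share the strain and age. Nothing in the labels says that the samples were separate animals or litters, so each p-value rests on the spread among libraries, which may be technical. In a whole inner ear, fewer cells of a type and less RNA per cell cannot be told apart. Libraries held 31244799 to 41875972 reads in listed genes, and 1 read was worth a normalized value of 0.0239 to 0.0317. Inner ear markers were present: all 10 hair cell markers were measured, at sums of 205 to 295 in the WT and 229 to 291 in the nmf219 libraries, and 6 of 7 otic epithelium markers (Cldn14 was not among the listed genes). RNA of Y-linked genes was present in 3 WT libraries (replicates 3, 4 and 5) and in 0 nmf219 libraries, so sex was uneven across the groups.

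Setting nmf219 against WT asks whether transcripts of the otoconia machinery differ when Tbx1 carries this allele. Nox3, the catalytic subunit of the vestibular oxidase, had a mean 2.18-fold higher in nmf219, and every nmf219 library lay above every WT library. Its partners Noxo1 and Cyba and the matrix genes Oc90 and Otol1 differed by 1.08-fold or less, and their genotypes overlapped. Nox3 did not pass the test across all genes, and the WT libraries themselves differed by up to 2.89-fold. With limma and Benjamini-Hochberg adjustment over the table, 0 of 7 passed at 0.05, where 13 of 15472 genes (0.084%) did and 0.0129% did as higher in nmf219. An unadjusted limma p under 0.05 was found for 2 of 7, Nox3 and Otop1, both higher in nmf219, against 7.11% of all genes in either direction and 3.88% as higher in nmf219. By means on the log2 scale 6 of 7 were higher in nmf219, with a median log2 fold change of 0.11, against -0.0055 over all genes, of which 46.9% were higher.

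**Figure D1:**
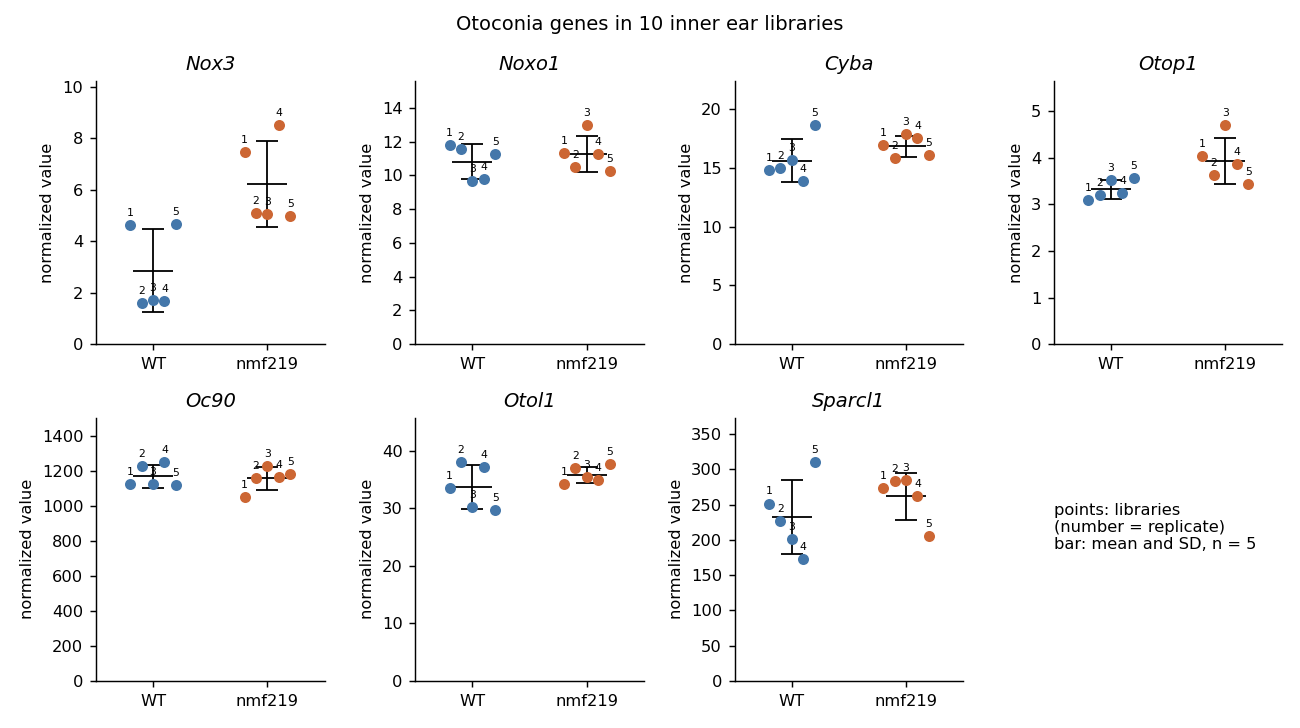
Normalized value (vertical axis, from 0) of each otoconia gene in 5 WT and 5 nmf219 libraries; points are libraries numbered by replicate, bars are mean and SD. Nox3 sits at 1.61 to 1.71 in WT replicates 2, 3 and 4, at 4.63 and 4.65 in WT replicates 1 and 5, and at 4.99 to 8.52 in nmf219, while the genotypes overlap in the other 6 genes.

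Nox3 (ENSMUSG00000023802, chromosome 17, 3635240 to 3696261, minus strand, in the coordinates of the deposited table) encodes the NADPH oxidase that makes superoxide in the vestibular epithelium; mice without it lack otoconia and tilt their heads. The 5 WT libraries, replicates 1 to 5, were at normalized values of 4.63, 1.61, 1.71, 1.69 and 4.65. The 5 nmf219 libraries were at 7.46, 5.08, 5.06, 8.52 and 4.99. WT thus held a low trio and a high pair with nothing between 1.71 and 4.63, and the high pair lay just under the lowest nmf219 library. The low trio rested on 54 to 71 reads each and the other 7 libraries on 150 to 335 reads, so the 2 sets did not overlap in reads either. Means were 2.86 ± 1.63 for WT and 6.22 ± 1.66 for nmf219 (SD over 5 libraries per genotype), and the log2 fold change was 0.97 on log2(value + 1) (SE 0.26, 95% interval 0.41 to 1.53). The limma adjusted p was 0.497 and the unadjusted p 0.00267, rank 82 of 15472 genes. The two-sided exact permutation test of the log2 values gave p = 0.00794, the smallest that 5 against 5 can give; 0.388% of all genes had all nmf219 libraries above all WT libraries. In the authors' deposited table Nox3 has a log2 fold change of 1.12 and an FDR of 7.45e-16, and 3.26% of the genes there have an FDR under 0.05; the test behind that FDR is not given in the sources used here. Within WT the SD of Nox3 on the log2 scale was 0.59, larger than that of 98.5% of all genes, and within nmf219 it was 0.32, larger than that of 97.3%.

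Neither Y-linked RNA nor the numbering of the samples divided the WT libraries as Nox3 did, and their part in that split was not tested. WT replicates 3 and 4 carried Y-linked RNA and replicate 2 did not, while replicate 5 of the high pair did and replicate 1 did not. A check chosen after looking at the values left out the 3 WT libraries that carry Y-linked RNA. Only WT replicates 1 and 2 then remained in WT, with Nox3 at 4.63 and 1.61. The log2 fold change of Nox3 was 0.89 (limma adjusted p = 0.522). The description numbers run from 2162 to 2169 and from 2199 to 2208, and either range has WT libraries with high and with low Nox3. On the log2 scale nmf219 exceeded WT by 0.82 within the lower range (3 against 2 libraries) and by 1.13 within the upper one (2 against 3).

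Transcripts of several other tissues were also higher in the WT pair with high Nox3 than in the WT trio with low Nox3. The mean log2 level was 5.66 in both libraries of the pair and 5.45 to 5.57 in the trio for the 10 endothelial markers, against 5.63 to 5.74 in nmf219. For the 12 macrophage markers it was 3.86 and 4.04 in the pair, 3.31 to 3.73 in the trio and 3.73 to 4.03 in nmf219. For the 10 hair cell markers it was 3.57 and 3.65 in the pair, 3.21 to 3.40 in the trio and 3.36 to 3.67 in nmf219, and the 6 measured glial markers and the member Sparcl1 were also higher in the pair than in the trio. The trio was thus below the pair in each of these means, and for endothelium below all nmf219 libraries as well. Of these, macrophage markers were entered as a covariate, and the part of the others in the Nox3 values was not tested. Other marker sets did not divide the pair from the trio: skeletal muscle, neutrophil, red blood cell, otic epithelium, and macular and vestibular epithelium. Skeletal muscle markers were at 6.63 in WT replicate 3 of the trio and at 4.89 and 4.38 in the pair. The macular and vestibular markers include the members Oc90 and Otop1, so they are not independent of the set. These markers were at 6.04 and 6.01 in the pair and at 6.03 to 6.12 in the trio. Among single genes, Slc26a4, the anion exchanger pendrin of the endolymphatic sac, whose loss in mice gives abnormal otoconia, had WT values, by replicate, of 9.20, 4.95, 4.89, 4.77 and 8.78, and nmf219 values of 8.95, 5.30, 5.94, 14.6 and 7.82. It was high in the WT pair in which Nox3 was high, and highest in nmf219 replicate 4, as Nox3 was, but it did not separate the genotypes (log2 fold change 0.31, limma adjusted p = 0.763). Foxi1, a transcription factor of the same sac cells, was at 3.07 and 1.58 in WT replicates 1 and 5 and at 0 to 0.573 in the other WT libraries, and it ranged from 0.188 to 5.32 in nmf219. In nmf219 replicates 2 and 3 Foxi1 was at 0.194 and 0.188 while Nox3 was above 5, so Nox3 and Foxi1 did not keep one ratio across libraries. Slc26a4 and Foxi1 were singled out after their values were seen, and the part of endolymphatic sac RNA in the Nox3 values was not tested.

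By the rule for likeness, Pearson's r of log2(value + 1) over the 10 libraries among 15031 other genes, the genes most like Nox3 were B3gnt3 (r = 0.95), Bmp6 (0.95), Inf2 (0.95), Mmp23 (0.95) and Klf5 (0.95). They were picked as the highest values of many, and since Nox3 falls in 2 clusters these values rest largely on the gap between them; over the 7 libraries with Nox3 above the gap r was 0.74 to 0.87. Klf5, a zinc finger transcription factor of epithelia, was at 5.18 to 5.93 in WT replicates 2, 3 and 4, at 6.72 and 7.20 in WT replicates 1 and 5, and at 7.02 to 8.21 in nmf219. Bmp6, a secreted ligand of the BMP family, was at 5.75 to 6.30 in the WT trio, 7.62 and 7.88 in the WT pair and 7.56 to 8.26 in nmf219. Their range was narrower than that of Nox3, since the highest WT library stood 1.37-fold above the lowest for Bmp6 and 2.89-fold for Nox3. None of the 5 passed limma's test (adjusted p = 0.680 for each).

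**Figure D2:**
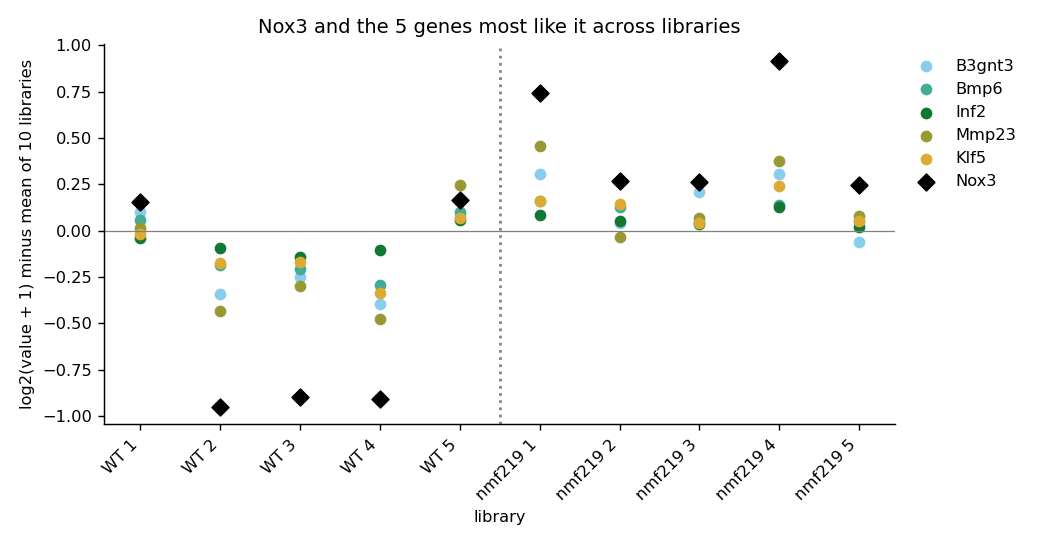
Log2(value + 1) minus its mean over the 10 libraries (vertical axis) for Nox3 (black diamonds) and the 5 genes most like it (coloured points), by library (horizontal axis, WT left of the dotted line). All 6 genes lie below their mean in WT replicates 2, 3 and 4, and Nox3 has the widest range, with WT values of 1.61 to 4.65.

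Noxo1 and Cyba encode the parts that work with NOX3. Noxo1 (ENSMUSG00000019320, chromosome 17, 24696234 to 24700529, plus strand) encodes the organizer that lets NOX3 assemble, and its loss in mice also removes otoconia. By replicate, WT stood at 11.8, 11.6, 9.65, 9.81 and 11.3, and nmf219 stood at 11.3, 10.5, 13.0, 11.2 and 10.3. The genotypes overlapped throughout (log2 fold change 0.053, 95% interval -0.11 to 0.22, limma adjusted p = 0.863). The gene Tbl3 overlaps it on the other strand. No source used here says if strand was used in counting, so reads in the overlap cannot be assigned.

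Cyba (ENSMUSG00000006519, chromosome 8, 122424772 to 122432940, minus strand) encodes p22phox, the membrane partner shared by NOX3 and the oxidases of phagocytes. By replicate, WT stood at 14.8, 15.0, 15.7, 13.9 and 18.6, and nmf219 at 16.9, 15.8, 17.9, 17.5 and 16.06. The gene model Gm20388 spans Cyba on the other strand, with the same limit on assigning reads. WT replicate 5 was above all nmf219 libraries and the other 4 WT libraries below them all (log2 fold change 0.11, 95% interval -0.048 to 0.26, limma adjusted p = 0.727). Without WT replicate 5 the log2 fold change was 0.17 (limma adjusted p = 0.267). Macrophage markers, 12 of 12 measured, had sums of 141 to 277 (WT) and 200 to 263 (nmf219). Of these 11 of 12 were higher in nmf219, against 46.9% of all genes. Past the test were 0, and 2 had an unadjusted limma p under 0.05, against 7.11% of all genes. Of 7 neutrophil markers 5 were measured, at sums of 4.84 to 10.6 in WT and 2.42 to 31.5 in nmf219; Mpo and Elane were not among the listed genes. Over the 10 libraries Cyba and the mean of the macrophage markers had r = 0.73 (permutation p = 0.0139, adjusted 0.0583) and rho = 0.59, and r was 0.39 without the 2 libraries farthest from the median of the markers.

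The ratio of RNA within the complex varied with Nox3. Per kilobase of exon, Nox3 RNA was 43.6% ± 22.2 (SD, n = 5) of Noxo1 RNA in WT and 93.4% ± 25.1 in nmf219. The WT ratios ran from 23.4% to 69.5% and the nmf219 ratios from 65.4% to 127%, so the genotypes overlapped. Noxo1 against Cyba was steady, at 24.1% ± 3.02 in WT and 23.0% ± 1.23 in nmf219. The ratios depend on the length used. Noxo1 has 3013 bases of merged exon but 2238 in its longest transcript, while Nox3 has 1792 by either. With the longest transcript the share of Nox3 against Noxo1 would be lower in both genotypes. Reads where Tbl3 overlaps Noxo1 also enter these ratios unassigned. These are ratios of RNA, and they say nothing of the amounts of protein.

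The sequences before the starts of Nox3, Cyba and Otol1 are shown to set the gene that separated the genotypes beside a partner and a matrix gene that did not. They are the 250 bases before the RefSeq start of each gene (GRCm38.p6), 5′ to 3′ on the strand of the gene, in lower case; capitals would mark a match to 1 of 3 motifs.
Nox3 (chr17:3696262-3696511, minus strand): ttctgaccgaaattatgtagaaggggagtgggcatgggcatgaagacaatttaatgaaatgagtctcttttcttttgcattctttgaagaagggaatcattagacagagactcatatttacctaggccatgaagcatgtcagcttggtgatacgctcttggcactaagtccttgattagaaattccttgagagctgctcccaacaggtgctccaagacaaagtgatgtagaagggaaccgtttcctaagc
Cyba (chr8:122432941-122433190, minus strand): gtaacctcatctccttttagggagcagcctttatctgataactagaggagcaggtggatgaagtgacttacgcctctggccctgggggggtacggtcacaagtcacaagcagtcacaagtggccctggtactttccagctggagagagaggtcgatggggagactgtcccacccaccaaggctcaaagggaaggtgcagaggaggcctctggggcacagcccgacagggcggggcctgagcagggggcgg
Otol1 (chr3:70007363-70007612, plus strand): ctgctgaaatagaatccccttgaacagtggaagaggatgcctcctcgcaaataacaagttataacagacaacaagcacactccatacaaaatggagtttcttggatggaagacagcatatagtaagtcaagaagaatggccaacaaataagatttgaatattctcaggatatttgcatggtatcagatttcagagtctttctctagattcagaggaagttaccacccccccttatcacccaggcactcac
The motifs were AGGTGTGA, the T-box element, on both strands, AAGGTCA, the core of the element bound by Esrrb, on both strands, and TATAAA, the TATA box, on the strand of the gene; the T-box element and the Esrrb core share the letters AGGT, so their matches could overlap in part. No match was found in the windows of Nox3, Noxo1, Cyba, Otop1 and Otol1, the 5 members with an entry. Of all 32851 such windows 1.12% held the T-box element, 4.08% the Esrrb core and 7.59% the TATA box. Base composition differed, with 42.8% G and C before Nox3, 41.2% before Otol1 and 60.0% before Cyba.

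Otop1 (ENSMUSG00000051596, chromosome 5, 38275972 to 38304217, plus strand) encodes a proton channel of the macular epithelium that is mutated in the otoconia-deficient tilted mouse. By replicate, WT read 3.09, 3.19, 3.52, 3.25 and 3.57, and nmf219 read 4.03, 3.63, 4.71, 3.87 and 3.43. Only nmf219 replicate 5 lay within the WT range. Means were 3.32 ± 0.210 for WT and 3.93 ± 0.488 for nmf219 (SD, n = 5 each), a ratio of 1.18, with a log2 fold change of 0.19 (95% interval 0.017 to 0.35). The limma adjusted p was 0.680, the unadjusted p 0.0334 and the exact permutation p 0.0317 (two-sided). Unlike Nox3, Otop1 showed a narrow spread within WT, with an SD of 0.070 on the log2 scale. The WT libraries with the most Otop1 were not those with the most Nox3. Otop1 was at 3.52 and 3.57 in WT replicates 3 and 5 and at 3.09 to 3.25 in replicates 1, 2 and 4.

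The matrix genes Oc90 and Sparcl1 were the most abundant members per kilobase of exon, and Otol1 did not differ from Cyba beyond their spread. Oc90 (ENSMUSG00000015001, chromosome 15, 65876053 to 65912397, minus strand), for otoconin 90, read 1126, 1230, 1128, 1256 and 1119 across WT replicates, and 1055, 1160, 1232, 1167 and 1183 across nmf219 replicates. It varied by 1.12-fold within WT and 1.17-fold within nmf219, and the genotypes overlapped (log2 fold change -0.016, 95% interval -0.13 to 0.098, limma adjusted p = 0.945). Otol1 (ENSMUSG00000027788, chromosome 3, 70007613 to 70028708, plus strand) encodes otolin, a collagen-like protein that binds otoconin 90. Its WT values were 33.4, 38.1, 30.2, 37.1 and 29.7, and its nmf219 values 34.1, 36.9, 35.4, 34.9 and 37.6 (log2 fold change 0.090, 95% interval -0.060 to 0.24, limma adjusted p = 0.751). The WT libraries spread on both sides of the nmf219 libraries. The upper bounds for Oc90 and Otol1 lie under 0.41, the lower bound for Nox3; the differences between these genes were not tested.

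Among 15031 other genes, those most like Oc90 over the 10 libraries were Ndufa2 (r = 0.93), Snhg4 (0.92), Rag1 (0.92), Cldn22 (0.90) and 2310030G06Rik (0.90). They are the highest of many values and are given as a description. None passed limma's test between the genotypes, with adjusted p-values of 0.894 to 0.947.

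Sparcl1 (ENSMUSG00000029309, chromosome 5, 104079111 to 104113733, minus strand) encodes a SPARC-like matrix protein found in otoconia, and it is also made by blood vessels and by astrocytes. By replicate, WT stood at 252, 227, 201, 172 and 311, and nmf219 at 273, 283, 285, 262 and 205. The genotypes overlapped widely, with the highest and the lowest library both in WT (log2 fold change 0.19, 95% interval -0.12 to 0.50, limma adjusted p = 0.751). The gene model Gm26703 overlaps it on the other strand, with the same limit on assigning reads as for Noxo1.

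Sparcl1 ran against Hbb-y, the embryonic beta-like globin whose RNA falls as fetal red cells replace the primitive ones. By replicate, Hbb-y stood at 11.4, 15.8, 20.5, 44.4 and 3.10 for WT, and at 6.15, 4.28, 3.66, 4.15 and 33.0 for nmf219. The WT library with the least Hbb-y had the most Sparcl1 and the one with the most Hbb-y had the least, and in nmf219 the library with the most Hbb-y also had the least Sparcl1. Over 10 libraries Pearson's r was -0.96 (permutation p = 2.00e-05, adjusted over 42 relations 0.000840) and Spearman's rho -0.95 (permutation p = 0.000120). Without the 2 libraries farthest from the median of Hbb-y r was -0.94, and with the genotype means subtracted it was -0.96; the description-number ranges hold 5 libraries each, too few for a value within each. Sparcl1 also went with the mean of the 6 measured astrocyte and radial glia markers (r = 0.90, permutation p = 0.000610, adjusted 0.00640; rho = 0.92, adjusted 0.0126), with r = 0.85 without the 2 farthest libraries. With the 12 macrophage markers r was 0.89 (permutation p = 0.000470, adjusted 0.00640) and 0.90 without the 2 farthest libraries, while rho was 0.83 and did not pass after adjustment (0.0646). With the 10 endothelial markers r was 0.77 (permutation p = 0.00918, adjusted 0.0551) and rho 0.61 (adjusted 0.216), and neither passed after adjustment. That r was 0.57 without the 2 farthest libraries. The summed glial markers had a range of 301 to 362 (WT) and 310 to 349 (nmf219), and Gfap was not among the listed genes. With Hbb-y as a covariate the log2 fold change of Sparcl1 was -0.0080 (SE 0.050, limma adjusted p = 0.998). Embryo age and blood content were not measured, and their part in these values was not tested.

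For the other members r with Hbb-y was smaller in size. Cyba was next, with r = -0.79 (permutation p = 0.00798, adjusted 0.0551) and rho = -0.81 (adjusted 0.0646), and did not pass after adjustment; r was -0.80 without the 2 farthest libraries. Nox3 falls in 2 clusters, so its correlations over all libraries with Hbb-y, marker means and reads are not printed. They are among the 42 relations over which the p-values were adjusted. Within WT the trio with low Nox3 had more Hbb-y, at 15.8 to 44.4, than the pair with high Nox3, at 3.10 and 11.4. Across genotypes that order had an exception, since nmf219 replicate 5 had Hbb-y at 33.0 and Nox3 at 4.99, while WT replicates 3 and 4, with Hbb-y at 20.5 and 44.4, had Nox3 at 1.71 and 1.69. With Hbb-y as a covariate the log2 fold change of Nox3 was 0.75 (SE 0.23, limma adjusted p = 0.686), and with macrophage markers 0.70 (SE 0.21, limma adjusted p = 0.617). Summed skeletal muscle markers spanned 97.9 to 1717 (WT) and 678 to 2897 (nmf219), all 8 higher in nmf219 with a median log2 fold change of 1.76, 0 past limma's adjusted threshold and 7 of 8 at an unadjusted p under 0.05 (7.11% of all genes). With them as a covariate Nox3 was at 0.85 (SE 0.33, limma adjusted p = 1.00). The endothelial markers were all higher in nmf219, 0 past the adjusted threshold and 6 of 10 at an unadjusted p under 0.05. Their median log2 fold change was 0.13, with sums of 512 to 619 (WT) and 600 to 640 (nmf219). Of all genes 46.9% were higher in nmf219. The 42 relations of members with Hbb-y, marker means and reads were chosen after the values were seen.

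**Figure D3:**
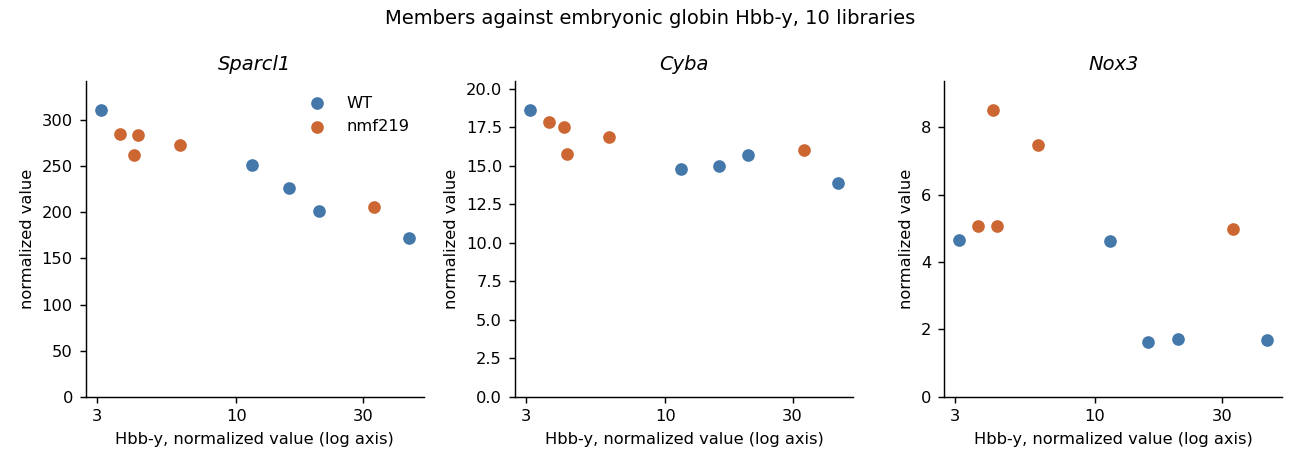
Normalized value of Sparcl1, Cyba and Nox3 (vertical axes, from 0) against that of the embryonic globin Hbb-y (horizontal axes, log scale) in 5 WT and 5 nmf219 libraries, 1 point a library. Sparcl1 runs from 311 at the lowest Hbb-y to 172 at the highest, while Nox3 shows a gap between 1.71 and 4.63.

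No pair of members passed a test of varying together. Of 21 pairs of members over the 10 libraries 0 passed after adjustment (permutation test of Pearson's r, two-sided); 5 had an unadjusted p under 0.05, and 0 passed with Spearman's rho. The pair with the highest r was Cyba and Sparcl1 (r = 0.77, permutation p = 0.0104, adjusted 0.161; rho = 0.78, adjusted 0.0746), and without the 2 libraries farthest from the median of Cyba r was 0.49. The matrix pair Oc90 and Otol1 had r = 0.61 (permutation p = 0.0614, adjusted 0.215) and rho = 0.76 (adjusted 0.0758).

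Per kilobase of merged exon length the members spanned a wide range of levels. Oc90 was at 610 ± 32.4 per kilobase (SD, n = 10), above 99.7% of genes. Sparcl1 followed at 84.1 ± 15.1, Otol1 at 16.08 ± 1.37, Cyba at 15.6 ± 1.43, Noxo1 at 3.66 ± 0.336, Nox3 at 2.53 ± 1.31 and Otop1 at 1.05 ± 0.139. Otol1 and Cyba did not differ beyond their spread (exact sign-flip permutation test within libraries, p = 0.535), and their order turned when the longest transcript was used as length. Noxo1 was above Nox3 in 8 of 10 libraries (exact permutation p = 0.0156), with nmf219 replicates 1 and 4 as the exceptions. Nox3 was above Otop1 in 8 of 10 (exact permutation p = 0.0137), with WT replicates 2 and 3 as the exceptions. By means, Nox3 stood between Noxo1 and Otop1 in both genotypes. In WT Nox3 was at 1.60 ± 0.907 per kilobase, with Noxo1 at 3.59 ± 0.336 and Otop1 at 0.966 ± 0.0609. In nmf219 Nox3 was at 3.47 ± 0.925, with Noxo1 at 3.74 ± 0.357 and Otop1 at 1.14 ± 0.142. In each other neighbouring pair the ranges of the 10 libraries did not overlap. Oc90 RNA was 7.35 times that of Sparcl1 per kilobase in the geometric mean, and Otol1 RNA was 2.54% ± 0.173 of Oc90 RNA in WT and 2.74% ± 0.137 in nmf219 (SD over 5 libraries per genotype).

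**Figure D4:**
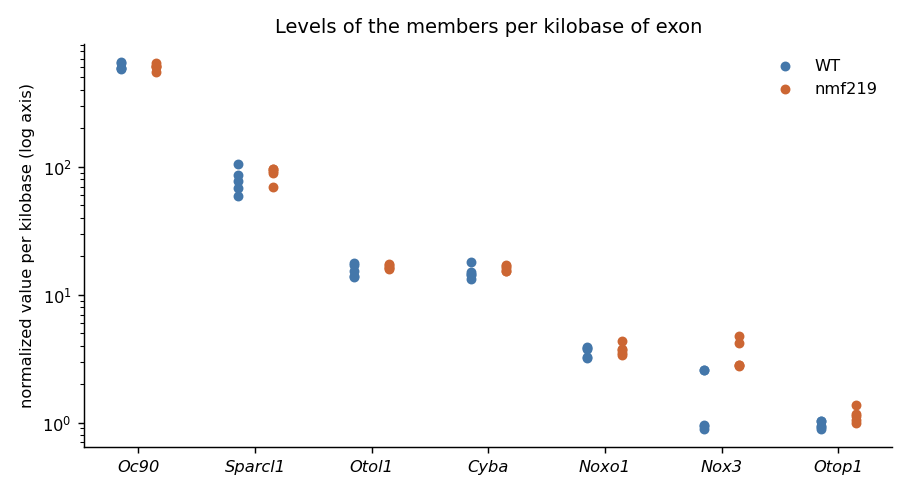
Normalized value per kilobase of merged exon (vertical axis, log scale) of the 7 genes in order of level, with 1 point a library and WT and nmf219 side by side. Oc90 stands highest at a mean of 610 and Otop1 lowest at 1.05, and Nox3 has the widest fold range within WT, at 2.89-fold.

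The remaining genes of the pathway were read from 5 lists, against a background of 46.9% of all genes higher in nmf219, 7.11% at an unadjusted p under 0.05 and 0.084% past limma's test. In the list of oxidase genes and partners 12 of 18 genes were measured, 10 of them higher in nmf219, 0 past limma's test in either direction and 2 at an unadjusted p under 0.05, with a median log2 fold change of 0.052. The 2 were Cybb, the phagocyte oxidase, at 4.55 ± 0.447 for WT and 5.78 ± 0.863 for nmf219 (limma adjusted p = 0.680), and Sod3, the extracellular superoxide dismutase, at 2.05 ± 1.13 and 3.63 ± 0.951 (limma adjusted p = 0.680). Rac1, a GTPase that can activate such oxidases, was the most abundant, at 273 ± 3.91 and 272 ± 5.14. Nox1 and Noxa1 were not among the listed genes, nor were Otop2 and Otop3, the relatives of Otop1.

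Of 22 genes for the otoconial matrix and the membranes over sensory epithelia 19 were measured, 17 of them higher in nmf219, 0 past the test in either direction and 3 at an unadjusted p under 0.05, with a median log2 fold change of 0.091. Otog and Tecta, which encode otogelin and alpha-tectorin of the acellular membranes, were at 212 ± 10.8 and 358 ± 24.5 in WT and at 211 ± 11.4 and 381 ± 19.4 in nmf219. Sparc, the relative of Sparcl1, was the most abundant, at 1889 ± 328 and 2192 ± 235 (log2 fold change 0.22, limma adjusted p = 0.693). Spp1, for the mineral-binding protein osteopontin, had a log2 fold change of 0.48 (limma adjusted p = 0.680).

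Of 22 genes that supply calcium, bicarbonate or protons 18 were measured, 10 higher in nmf219, 0 past the test and 1 at an unadjusted p under 0.05, the bicarbonate transporter gene Slc4a7 (log2 fold change -0.14, limma adjusted p = 0.680). Atp2b2, the calcium pump of hair cells that otoconia need in mice, had means of 19.5 ± 2.55 for WT and 18.6 ± 1.59 for nmf219, and Atp2b1 was the most abundant, at 221 ± 3.83 and 215 ± 9.33. In the list of vestibular and dorsal otic regulators 18 of 20 were measured, 6 higher in nmf219, 0 past the test and 7 at an unadjusted p under 0.05, with a median of -0.038. Eya1, a transcriptional cofactor in otic development, was the most abundant, at 154 ± 5.43 for WT and 150.0 ± 3.99 for nmf219. Esrrb, Pax2 and Otx2, named after their values were seen, were lower in the mean of nmf219 and passed only under some alternatives. Esrrb, a nuclear receptor gene, was at 29.9 ± 11.1 in WT against 11.5 ± 2.11 in nmf219 (log2 fold change -1.24, limma adjusted p = 0.114), with all nmf219 libraries below all WT libraries, as for 0.782% of all genes.

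**Figure D5:**
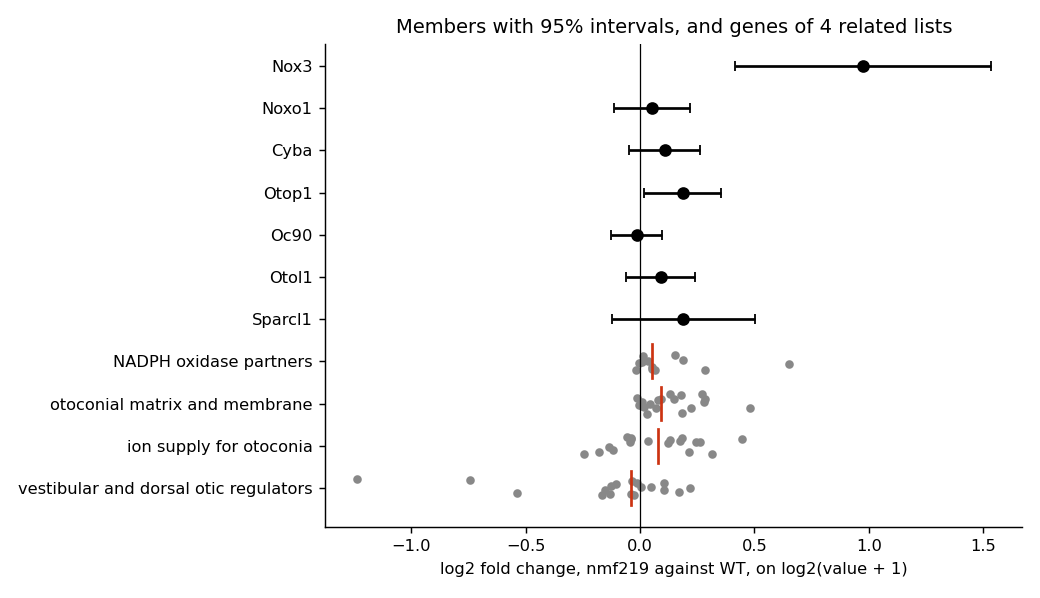
Log2 fold change of nmf219 against WT on log2(value + 1) (horizontal axis) for the 7 otoconia genes with 95% intervals (black) and for each measured gene of 4 related lists (grey points, red bar at the median). Nox3 stands at 0.97 with an interval of 0.41 to 1.53, Otop1 at 0.19, and the intervals of the other 5 members include 0.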

How the data were processed

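RNA of 5 WT and 5 nmf219 inner ear samples was extracted with Trizol and made into Illumina libraries from 1 ug of total RNA, per the labels' protocols. For the aligner, counter, strand setting, annotation, build and the authors' test: not given in the sources used here. The deposited table gives a normalized signal for each gene in each library under a heading of counts and CPM. It also holds, per the file headers, the authors' log2 fold change, their p-value with FDR, and a signed fold change (a score below 0 where lower). Column sums of 990643 to 1009217 show a scaling near 1 per library. Every value was a whole multiple of 1 step per library within 0.01 read (100% in each library), which gives the reads behind a value; 3 reads correspond to 0.0716 to 0.0952. Between libraries of one genotype, chi-square over its degrees of freedom was 7.93 to 61.1, so no library was a copy of another. Sampling noise alone would leave it near 1.

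Columns were matched to samples by description number. Genotypes were compared with limma version 3.58.1 and a mean-variance trend, on log2(value + 1) over all 15472 genes with genotype as the only term, Benjamini-Hochberg adjusted, threshold 0.05; a fold change on that scale understates the change of low genes. The fit was tested on simulated data that gave every gene the same dispersion between libraries. That test does not cover the spread among the libraries used here. Single values were compared by two-sided exact permutation tests, and correlations by 100000 permutations. Exon lengths came from GENCODE M21 (GRCm38; 15309 of 15472 identifiers matched) and promoters from RefSeq (GRCm38.p6). Confidence intervals are at 95%.

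The members and lists were chosen with earlier results of these data known. The named genes are the members, the 5 genes most like each of Nox3 and Oc90, the called or else most abundant gene of each list, and any gene of the oxidase, matrix and ion lists. Outside this rule, Hbb-y, Esrrb, Pax2 and Otx2 were named after their values were seen. The motifs and the printed promoters were chosen after the values were seen. The promoters of Noxo1 and Otop1 are not printed, since those windows overlap an annotated gene. nmf219 has library numbers 7050 to 7054 and WT has 7058 to 7062, so library order and genotype cannot be told apart.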

Additional observations from a re-analysis of the deposited data

How the results depend on the processing

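The count of 0 members past the test held under all 25 alternatives, 10 of which left out 1 library. Leaving out libraries or changing the pseudocount could not turn the sign of Nox3, since every nmf219 library lay above every WT library. Nox3 kept its direction in all 25. Its log2 fold change ranged from 0.86 to 1.14 when 1 library was left out (limma adjusted p 0.186 to 0.926) and from 0.70 to 1.23 otherwise (0.147 to 1.00). The genes past the test over the whole table numbered 13, and 2 with a replicate block, 2 with Xist, 33 with Hbb-y, 4 with muscle markers and 30 with macrophage markers as covariates, 29 with weights per library (added after the data were seen) and 7 to 18 without 1 library (7 without WT replicate 2, nmf219 replicate 3 or nmf219 replicate 4, 8 without nmf219 replicate 1). Same-numbered libraries had correlations of -0.48 to 0.14 in their deviations. These were not compared with those of differently numbered libraries, so a pairing by number was not tested. The replicate block left Nox3 at 0.97 (limma adjusted p = 0.907). Of the 4 related lists, whose measured genes gave 0 calls, Hbb-y as a covariate gave 2 (Esrrb and Pax2), macrophage markers 1 (Esrrb), leaving out 1 library 0 to 1 (Esrrb without WT replicate 4, Otx2 without WT replicate 5), leaving out the WT libraries with Y-linked RNA 1 (Esrrb) and weights per library 2 (Esrrb and Pax2). Small values turned sign: Noxo1 with Xist (-0.036), with Hbb-y (-0.0059) and without the WT libraries with Y-linked RNA (-0.054); Sparcl1 with Hbb-y (-0.0080) and macrophage markers (-0.0094); Oc90 with Hbb-y (0.0071), muscle (0.074) and macrophage markers (0.032), and, when 1 library was left out, with a range of -0.038 to 0.018. The cause was not tested. The values come out as whole reads, but the planned tests on counts were not run, so their calls are not known here.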
